A study of Mus musculus with 14 samples.

Results

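B-1a cells of the peritoneal cavity were profiled on one-colour arrays in mice labelled Bmi1 KO and in mice labelled WT. The 8 arrays described here, of 14 in the study, are those whose titles join genotype and number with a low line: KO_1, KO_2, KO_3 and KO_4, and WT_1, WT_2, WT_3 and WT_4. They are taken as the second of the study's 2 sets of experiments, while the first set holds 3 arrays per genotype. No treatment, time, age, sex or strain is given for either genotype, and neither is the Bmi1 allele or whether it was deleted in all cells. It is also not given whether separate animals supplied the 4 samples of each genotype, so the p-values cover the spread among samples, and that spread may be technical. With 4 arrays per genotype, their number limits the precision.

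B-1a cells, a lineage of innate-like B cells marked by CD5, renew themselves in the body cavities and secrete natural antibodies without prior immunization. The Bmi1 protein belongs to Polycomb repressive complex 1 (PRC1), which places ubiquitin on histone H2A and keeps developmental genes silent, together with Polycomb repressive complex 2 (PRC2), which methylates histone H3. Textbook targets of Bmi1 are Cdkn2a, the locus of the growth-arrest proteins p16Ink4a and p19Arf, and the Hox genes of the body axis. The comparison asks how gene expression of B-1a cells differs in the absence of Bmi1.

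A level below is the log2 intensity of a probe minus the 75th percentile of its array, taken over the 7433 probes with signal well above background on all 8 arrays. Genes were tested if a probe had signal well above background on 3 or 4 arrays of one genotype, and 17710 genes met this. The dimmest probe above background stood at a level of -8.25 to -7.82 on these arrays. Levels near or under that carry no more than a bound. A fold given as at least some value holds for this signal and scaling only. A difference is KO minus WT on the log2 scale, and a relative difference has the median difference of all genes tested (-1.03) taken off.

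Signal was not even across the arrays. Probes well above background made up 54.1% of all probes on WT_1, 47.1% on WT_2, 46.6% on WT_3 and 51.6% on WT_4. They made up 29.9% on KO_1, 20.6% on KO_2, 31.9% on KO_3 and 52.4% on KO_4. KO_1, KO_2 and KO_3 thus lay below all WT arrays, and KO_4 lay among them. The mean was 33.7% ± 13.4 (SD, n = 4) for KO arrays and 49.8% ± 3.58 (SD, n = 4) for WT arrays. A two-sided exact permutation test gave p = 0.114, where 0.0286 is the smallest it can give. Without KO_4, the KO array within the WT range, the difference went from -16.2 to -22.4 percentage points. Within the slide that held all KO arrays and WT_1 and WT_3, the difference was -16.6 percentage points (two-sided exact permutation test, p = 0.267). Profiles of KO_4 correlated with WT profiles at r = 0.80 to 0.88 across genes, as WT profiles did with each other (0.79 to 0.87). KO_1, KO_2 and KO_3 correlated at 0.63 to 0.73 with WT, at 0.65 to 0.73 with KO_4 and at 0.61 to 0.66 among themselves. Xist, expressed from the inactive X of females, read -0.25 on WT_2 and 0.11 on KO_2 at its probe starting at 100656289, and -10.19 to -9.50 on the other arrays. Ddx3y, on the Y chromosome, had signal above background on 6 arrays, WT_2 and KO_2 being those without. A second Xist probe, starting at 100662174, read -1.25 on WT_2 but -9.93 on KO_2, and was above background on WT_1, WT_3, KO_3 and KO_4 too. The Y-linked Kdm5d was below background on KO_1 and KO_3 as well as on WT_2 and KO_2. Sex is not given, and leaving out WT_2 and KO_2 left 0 genes called.

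**Figure D1:**
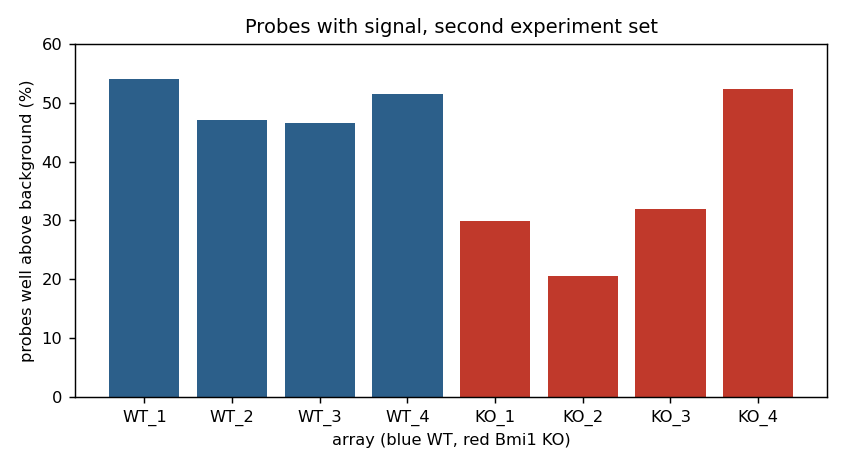
Percent of probes with signal well above background (vertical axis) on each of the 8 arrays (horizontal axis, blue WT and red Bmi1 KO). KO_1, KO_2 and KO_3 lie at 20.6% to 31.9%, and KO_4 at 52.4% lies within the WT range of 46.6% to 54.1%.

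Of 17710 genes, 8 fell and 0 rose in Bmi1 KO B-1a cells (limma, Benjamini-Hochberg adjusted p under 0.05), or 0.0452% and 0%. The genes that fell were Rab27a, a small GTPase that docks secretory granules at the plasma membrane, Faf2, an adaptor for the degradation of endoplasmic reticulum proteins, and Ifi207, of the interferon-inducible p200 family. Gnb3, a beta subunit of heterotrimeric G proteins, the metallopeptidase gene Amz2, the zinc finger gene Zfp882, Fam229b and a long intergenic non-coding RNA (lincRNA) of chromosome 1 completed the 8. Apart from the lincRNA, these genes were above background on 4 WT arrays and 0 KO arrays. They entered the test through the WT arrays alone, and the fit took their background readings in KO as levels. At an unadjusted p under 0.05 there were 70 genes higher (0.395%) and 2263 lower (12.8%). That split varied with the setting. With the 75th percentile over all probes it was 1219 higher and 568 lower, and with quantile normalization 769 and 1105. In the deposited values, 814 genes were higher and 1105 lower. With normexp background correction the split was 133 higher and 1464 lower. With a filter of signal above background on all 8 arrays it was 114 and 254. The cause of the split was not tested.

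The number of calls changed when single arrays were left out or slide was taken into account. Leaving out WT_1, WT_2, KO_1 or KO_3 left 0 genes past the threshold, and leaving out KO_4 gave 15 higher and 1464 lower, among them the same 8. Without WT_3 there were 10 lower (4 of the 8 among them), without WT_4 3 (1 of the 8) and without KO_2 6 (4 of the 8). With slide as a fixed block, or within the slide that held both genotypes, 0 genes passed.

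Sequences of the probes are shown for the lincRNA, because its 5 probes did not behave alike, for Rab27a, which had the smallest p, and for Ifi207, which lies in the same interval as the lincRNA. Per the file headers the genome build is mm9. The lincRNA is annotated on the forward strand of chromosome 1 from 175654606 to 175672031. Its probes are given 5′ to 3′ with their positions, and capitals mark the longest run of bases that 4 of the 5 share.
lincRNA probe chr1:175657865-175657924: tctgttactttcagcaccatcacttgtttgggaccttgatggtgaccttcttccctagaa
lincRNA probe chr1:175659202-175659260: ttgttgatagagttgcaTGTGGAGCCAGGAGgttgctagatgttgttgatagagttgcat
lincRNA probe chr1:175659243-175659302: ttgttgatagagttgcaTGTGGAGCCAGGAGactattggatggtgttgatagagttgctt
lincRNA probe chr1:175659288-175659389: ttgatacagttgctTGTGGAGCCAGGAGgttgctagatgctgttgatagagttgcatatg
lincRNA probe chr1:175659524-175659583: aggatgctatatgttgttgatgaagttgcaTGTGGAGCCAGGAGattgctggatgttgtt
Rab27a probe chr9:72944668-72944727, first 30 bases: agggactctttgaaacaccaaactcatcat
Ifi207 probe chr1:175666571-175671746, first 30 bases: gtacatcgcagcagaaatatccaaggaggc

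The shared run TGTGGAGCCAGGAG, 14 bases long, occurs in 4 of the 5 lincRNA probes and, searched on both strands, in 0 other probes of the 55681 on the array. Those 4 probes are therefore not independent readings, and some of them overlap on the chromosome.

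The lincRNA probe at 175659202 had levels of 1.39, 1.98, 1.90 and 2.13 on WT_1 to WT_4. On KO_1 to KO_4 the levels were -6.04, -8.15, -6.08 and -4.94. Every KO array lay far below every WT array, KO_4 included, and 3 of the 4 KO arrays still had signal well above background. The difference was -8.16 (SE 0.72, adjusted p = 0.0165). The other 3 probes with the shared run differed by -9.56, -7.63 and -7.40, each with no overlap between genotypes. The fifth, at 175657865 and without the run, differed by -2.91 (two-sided exact permutation test, p = 0.114), and its KO levels ran from -9.02 on KO_1 to -2.18 on KO_4.

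Ifi207 lies on the reverse strand in the same interval. The levels of its brighter probe were -3.94, -2.67, -1.91 and -2.78 on the WT arrays. On the KO arrays they were -9.94, -9.19, -9.15 and -8.74, none of them well above background. At this probe the level was thus at least 36.3-fold lower in KO (difference -6.43, SE 0.59, adjusted p = 0.0167). A second Ifi207 probe, at 175653663, had signal on WT_2 alone of the 8 arrays. Inside the interval, reverse-strand probes of non-coding transcripts at 175655106 and 175662473 were above background on all 8 arrays. There the genotypes overlapped, with differences of -1.03 and -0.90. Some other reverse-strand probes of the interval lay lower in KO without overlap. The p200 genes are similar copies in a cluster, so which of them a probe reads is uncertain.

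Rab27a had the smallest p of all genes. It stood at -1.92, -1.01, -2.60 and -1.45 on the WT arrays and at -9.94, -9.99, -9.28 and -8.94 on the KO arrays. The KO arrays were all at background, including KO_4, where 52.4% of all probes had signal. On this scale its level was at least 76.9-fold lower in KO (difference -7.79, SE 0.56, adjusted p = 0.00892). One probe on chromosome 9 (mm9, 72944668 to 72944727, forward strand) reads the gene. Under other settings its relative difference ran from -7.30 to -3.80, beside -6.77 in the main fit. The smallest, -3.80, came with normexp background correction, so the 76.9-fold bound does not carry over to that setting. Within the slide with both genotypes the relative difference was -6.19 (adjusted p = 0.218).

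Gnb3 stood at -3.22 to -1.80 in WT and at -9.96 to -7.70 in KO, with 0 of 4 KO arrays above background. It was at least 40.1-fold lower (difference -6.46, SE 0.68, adjusted p = 0.036). Fam229b stood at -5.30 to -2.21 in WT and at -10.36 to -9.66 in KO, with KO_4 among the other KO arrays. It was at least 22.1-fold lower (difference -6.55, adjusted p = 0.0474). Amz2 was at least 17.1-fold lower (difference -5.51, adjusted p = 0.0474), with WT levels of -4.44 to -3.02. Its 2 other probes, at 109298244 and 109299319, were also below background on all KO arrays. They were above it on 3 and 1 of the 4 WT arrays. Their differences were -3.45 and -1.77 (two-sided exact permutation test, p = 0.0286 and 0.143).

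Faf2 and Zfp882 rest on 1 probe each that their other probes did not share. At the Faf2 probe from 54765094 to 54765153 of chromosome 13, WT levels were -4.98 to -4.20 and KO levels -10.39 to -9.70, at least 9.96-fold lower (difference -5.31, adjusted p = 0.0165). The other Faf2 probe, at 54762893, was above background on 2 arrays of each genotype with a difference of 0.84 (two-sided exact permutation test, p = 0.629). Zfp882 was at least 9.27-fold lower at its probe from 74437923 of chromosome 8 (difference -5.07, adjusted p = 0.0474). Its probes at 74439955 and 74442673 differed by -0.52 and 1.87 and were each above background on 1 KO array.

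**Figure D2:**
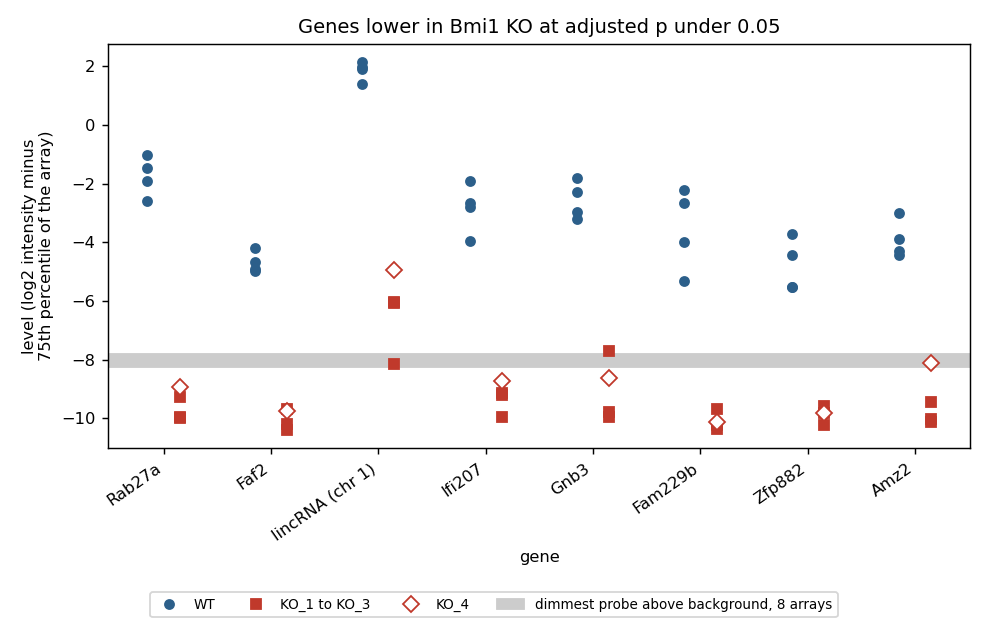
Level (log2 intensity minus the array's 75th percentile) of the 8 genes past the threshold, on WT arrays (blue circles), KO_1 to KO_3 (red squares) and KO_4 (open diamonds). The grey band spans the dimmest probe above background on the 8 arrays, -8.25 to -7.82, and the KO arrays lie below all WT arrays for each gene.

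The next genes by p just missed the threshold and were not called. Fcamr, a receptor for the Fc part of IgM and IgA, read -9.42, -8.83, -7.47 and -6.88 in KO, while the lowest WT array was WT_1 and the highest WT_4 at -1.37 (difference -6.04, SE 0.72, adjusted p = 0.0535). Slc37a2, a sugar phosphate transporter, differed by -5.34, Fzd6, a receptor for Wnt ligands, by -6.41, Rwdd2b by -5.97 and the zinc finger gene Zscan22 by -4.83 (adjusted p = 0.0535 to 0.0563). Each had 0 or 1 KO array above background and no overlap between genotypes. Over all genes with values on the 8 arrays, all KO arrays lay below all WT arrays for 939 of 17670 (5.31%) and above them for 100 (0.566%).

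Genes above background on all 8 arrays numbered 6184, a choice that leaves out any gene whose KO signal fell to background, such as Rab27a. In these KO lay below WT without overlap for 135 (2.18%) and above it for 94 (1.52%), and the median difference was -0.28. The 8 such genes with the smallest p on the lower side were Nadk, Copg2, Mrps25, Psg18, Rida, Prkaca, Resf1 and Tmco3, with adjusted p of 0.193 to 0.273. Nadk, the kinase that makes NADP, read -2.83, -2.34, -2.12 and -2.65 in WT and -5.66, -6.21, -5.83 and -3.80 in KO (difference -2.89, SE 0.64). Copg2, a coatomer subunit of Golgi vesicles, differed by -3.33 and Prkaca, the catalytic subunit of protein kinase A, by -3.61. Mrps25, of the mitochondrial ribosome, read -3.34 to -3.03 in WT and -7.21 to -6.72 on KO_1 to KO_3, against -3.88 on KO_4. In all 8 of these genes KO_4 was the KO array nearest to WT.

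Genes higher in KO did not reach the threshold. Among those well above background on all 4 KO arrays, the 12 with the smallest p had adjusted p of 0.19 to 0.278 (limma). Of these, 9 had no overlap between genotypes, beside 0.566% of all genes higher without overlap. Choosing by p on the same arrays favours such genes, so the count adds no evidence. Tnfrsf13c, the receptor for the B cell survival factor BAFF, read -2.14, -1.95, -2.43 and -3.11 in WT and -0.44, 0.89, -0.52 and -1.31 in KO. The KO arrays all lay above the WT arrays, KO_2 highest and KO_4 lowest (difference 2.06, SE 0.61, adjusted p = 0.273). A second, dimmer Tnfrsf13c probe, at 82054616, differed by -2.01 with overlap (two-sided exact permutation test, p = 0.4). It was above background on 3 WT arrays and 1 KO array. Dtx1, a ubiquitin ligase of the Notch pathway, read -4.61, -5.49, -6.01 and -7.17 in WT and -2.64, -2.54, -3.68 and -3.27 in KO (difference 2.79, SE 0.66, adjusted p = 0.227).

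Nenf, which encodes the secreted factor neudesin, had the largest of these differences, 6.29 (SE 1.38, adjusted p = 0.19), with WT levels of -9.78 to -5.82 and KO levels of -3.98 to 1.02. Gdi2, an inhibitor of Rab GTPase cycling, differed by 2.23, the mitochondrial transporter gene Abcb8 by 1.94, Tmem127 by 2.04 and the zinc finger gene Zfp994 by 2.75. A second Zfp994 probe, at 22336724, went the other way, with a difference of -3.70 (two-sided exact permutation test, p = 0.0286). It was above background on 4 WT arrays and 1 KO array, so the direction of Zfp994 depends on the probe. Xrcc1, a scaffold of single-strand break repair, differed by 4.43, Cbfb, the partner of the Runx factors, by 3.80, Gkap1 by 2.91 and Mul1, a mitochondrial ubiquitin ligase, by 2.53. KO and WT overlapped for Xrcc1, Cbfb and Gkap1.

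**Figure D3:**
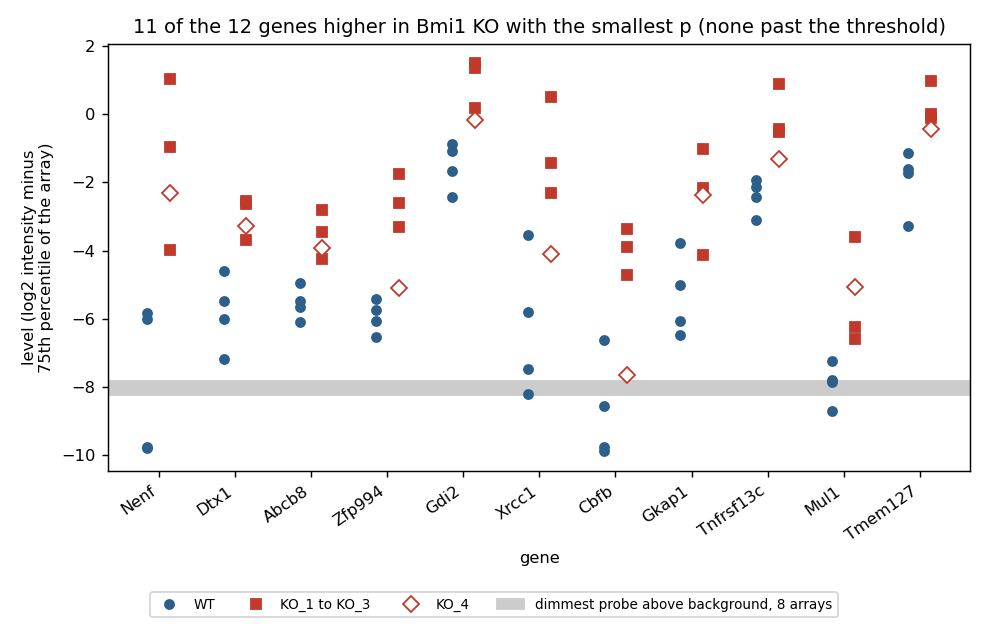
Level (log2 intensity minus the array's 75th percentile) of 11 of the 12 genes higher in KO with the smallest p, on WT arrays (blue circles), KO_1 to KO_3 (red squares) and KO_4 (open diamonds), with the grey band at -8.25 to -7.82 as the limit of signal above background. For the brighter probe of Tnfrsf13c the KO arrays lie at -1.31 to 0.89 and the WT arrays at -3.11 to -1.95, and none of the 12 passed the threshold.

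KO_4 often stood apart from the other KO arrays. KO_1, KO_2 and KO_3 lay below all WT arrays for 3830 genes, and there KO_4 was within the WT range for 2195, above it for 695 and below it for 939. They lay above all WT arrays for 306 genes, and there KO_4 was within the range for 167, above it for 100 and below it for 39. Of the 1464 genes called lower without KO_4, the level on KO_4 was below all WT arrays for 380. Its share of probes above background differed from that of the other KO arrays in the same way (52.4% against 20.6% to 31.9%), and the part of this in the counts was not tested.

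Bmi1 itself was read by 2 probes near one another on chromosome 2 (mm9, forward strand), and neither showed a loss of signal in KO. The probe from 18607531 to 18607590 read -4.78, -7.70, -3.55 and -3.19 in WT and -6.51, -10.06, -2.47 and -1.92 in KO. It was above background on 3 of 4 arrays of each genotype, KO_3 and KO_4 lay above all WT arrays, and KO_2 lay below them. The difference of -0.43 (two-sided exact permutation test, p = 0.83) had the opposite sign with 3 other settings of scaling or background. The probe from 18607987 to 18608046 was above background on 2 KO arrays and 1 WT array with a difference of 2.14 (two-sided exact permutation test, p = 0.429). Which part of Bmi1 was deleted is not stated in the sources used. A probe outside it would check nothing, so these values are no check of the genotype labels.

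Cdkn2a was too dim for the test. Its probe from 88920405 to 88920464 of chromosome 4 was above background on 1 array of each genotype with a difference of 1.37 (two-sided exact permutation test, p = 0.514). Its probe from 88920543 to 88920602 was above background on KO_2 alone, with a level of -2.83 there and of -10.12 to -7.87 on the other 7 arrays (difference 1.64, two-sided exact permutation test, p = 0.543). Both probes were highest on KO_2, the dimmest array. Of the 7 cell cycle inhibitor genes on the array, 3 entered the test, and 0 passed it. Their differences were 1.68 for Cdkn2c, -0.50 for Cdkn1b and -0.78 for Cdkn1a, with adjusted p of 0.611 to 0.784, and the relative differences of Cdkn1b and Cdkn1a turned sign under some settings.

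Among other Polycomb genes and targets 0 passed the test. Of 20 PRC1 genes 10 were measured, with a median relative difference of -0.15, and 9 of 11 PRC2 genes, with -1.05, beside 0 for all genes tested. Phc2, of PRC1, differed by -2.76 (adjusted p = 0.415). Aebp2, a cofactor of PRC2, read -2.26 to -0.52 in WT and -10.01, -10.02, -6.14 and -1.97 on KO_1 to KO_4 (difference -5.73, adjusted p = 0.275), so that KO_4 alone lay in the WT range. The sign of both list medians turned under some settings.

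Of 39 Hox genes 8 were measured, with a median relative difference of 0.18. Hoxc9, a homeobox factor of the posterior axis, was the only one of them with an unadjusted p under 0.05. It read -6.55, -6.73, -5.74 and -5.50 in WT and -5.89, 0.19, -0.32 and -2.12 in KO (difference 4.10, SE 1.28, adjusted p = 0.278). KO_1 lay among the WT arrays and the other 3 KO arrays lay above them. Of 6 measured neighbours of Bmi1, 5 lay under the all-gene median, with differences of -2.46 for Mllt10 and -2.37 for Commd3 (adjusted p = 0.353 and 0.541).

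The cells read as B cells on every array. Of 32 genes of B cell identity, 31 to 32 were above background on the WT arrays and 25 to 31 on the KO arrays. Cd79a, a signalling chain of the B cell receptor, read 2.29 to 2.70 in WT and 1.73 to 2.75 in KO, and the genotypes overlapped. Of the 32, 25 lay above the all-gene median, and the median relative difference was 0.96, beside 0.74 for all genes above background on the 8 arrays. Spi1, which encodes the transcription factor PU.1, was the only member without overlap, and 5.31% of all genes lay lower without overlap. It read -2.87, -5.90, -3.88 and -2.16 in WT and -6.12, -8.61, -9.55 and -9.56 in KO, KO_4 being the lowest (difference -4.76, SE 1.07, adjusted p = 0.205).

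Of the genes typical of B-1a cells 0 passed the test. Of 22 measured members of 24, 6 were above the all-gene median, 6 lay below WT without overlap and 0 above (5.31% and 0.566% of all genes), and the median relative difference was -0.81. Anxa2, a membrane-binding annexin, read -5.23, -3.93, -4.31 and -6.03 in WT and -10.22, -10.12, -9.17 and -6.96 in KO (difference -4.24, SE 0.87, adjusted p = 0.183). Plscr1, a phospholipid scramblase, read -1.36 to -0.70 in WT and -8.06, -8.15, -6.75 and -2.93 in KO (difference -5.46, SE 1.14, adjusted p = 0.187). For both, KO_4 was the KO array nearest to WT without reaching it.

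Bhlhe41, which encodes a basic helix-loop-helix repressor required in the B-1a lineage, stood close to 0 in WT (-0.37 to 0.01) and at -10.25, -10.15, -2.64 and -0.68 on KO_1 to KO_4. KO_1 and KO_2 were at background and KO_4 was close to WT (difference -5.78, SE 2.18, adjusted p = 0.327). Cd300lf, an inhibitory receptor, differed by -1.48, and Il10, an anti-inflammatory cytokine of B-1a cells, by -3.59 (adjusted p = 0.288 and 0.263). Cd5, the defining surface marker, read -7.80 to -3.62 in WT and -9.96 to -4.20 in KO, above background on 3 WT arrays and 1 KO array, KO_4 (difference -2.48, adjusted p = 0.456). Summed over the list on a linear scale, relative to each array's 75th percentile, signal was 42.2 to 49.5 in WT and 41.8 to 60.2 in KO, while 21 to 24 members were above background in WT and 13 to 22 in KO.

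Follicular B-2 cells are the recirculating B cells of spleen and lymph nodes. All 12 of their genes on the list were measured, 9 lay above the all-gene median, and the median relative difference was 0.55. The groups did not overlap for 2 members, both higher in KO (0.566% of all genes were), Tnfrsf13c at its brighter probe among them. Bach2, a repressor of plasma cell fate, lay on the other side, at -5.42 to -2.89 in WT and at -10.30, -10.21, -9.48 and -3.13 in KO (difference -4.11, adjusted p = 0.341). Of 9 plasma cell genes 0 passed, 5 lay above the all-gene median, and the list median was 0.13 relative. Mzb1, a chaperone of IgM assembly, differed by -1.67 and Jchain, which joins IgM and IgA, by -2.84 (both adjusted p = 0.353).

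Signalling and response genes were mixed. Of 15 measured genes of Toll-like receptor signalling 6 lay above the all-gene median, with a list median of -1.28. Ticam1, which encodes the adaptor TRIF, read -3.64, -5.82, -5.58 and -4.78 in WT and -8.92, -9.97, -8.31 and -7.70 in KO (difference -3.77, SE 0.73, adjusted p = 0.167). Of 11 interferon response genes 3 had no overlap, all lower (5.31% of all genes were). The list median was -0.16 relative, and its sign turned under 4 other settings. Among them Isg15 differed by -3.17 and Ddx58, the RNA sensor RIG-I, by -2.92 (adjusted p = 0.227 and 0.306). Of 18 immediate early genes, with a list median of -0.98 relative, 2 had no overlap, both lower (5.31% of all genes were): Myc, at -0.82 to 0.63 in WT and at -7.61, -7.98, -3.24 and -0.98 in KO, and Egr1, at -2.66 to -1.76 and at -3.70, -3.45, -8.25 and -5.37. Their differences were -4.69 and -3.07 (adjusted p = 0.287 and 0.294).

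Growth and housekeeping genes ran in different directions. Among the ribosomal proteins 76 of 78 measured genes exceeded the median difference of all genes, with a list median of 1.28 relative and a median difference of 0.25. Of all genes above background on the 8 arrays, 5236 of 6184 did so, with a relative median of 0.74. Of the 78 ribosomal protein genes, 76 were above background on all 8 arrays and 0 had an unadjusted p under 0.05. For 5 of the 78 there was no overlap, all higher in KO (1.52% of the genes above background on all 8 arrays were). Rpl24 read 0.30 to 1.02 in WT and 1.06 to 2.12 in KO at its brighter probe (difference 0.85, adjusted p = 0.46). Its probe at 55971488, also above background on all 8 arrays, differed by 0.10 with overlap (two-sided exact permutation test, p = 0.8). Fau and Rpl5 differed by 1.34 and 0.91, and on KO_4 they stood at -1.27 and 0.90, within the WT range. With KO_4 as the only KO array, which allows no test of its own spread, the list median was -0.06.

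Of 21 proliferation genes 12 lay above the all-gene median, and the list median was 0.36 relative. Of these 21, 0 had no overlap, beside 5.31% of all genes lower and 0.566% higher without overlap. E2f1, a factor of S phase entry, lay on the other side with a difference of -4.19 (adjusted p = 0.28). Of 19 DNA damage response genes 3 lay above the all-gene median, with a list median of -1.26 and 1 gene above background on all 8 arrays. Of 20 apoptosis genes 11 lay above the all-gene median (list median 0.37 relative), and of 27 respiratory chain genes 13 did (-0.07). Bcl2, an inhibitor of apoptosis, differed by -2.83 (adjusted p = 0.362) and Ndufb10, of respiratory complex I, by -4.02 (adjusted p = 0.187). E2f1 was above background on KO_4 alone of the KO arrays. The signs of the medians of the plasma cell, proliferation, apoptosis and respiratory chain lists turned under 8, 5, 4 and 3 of 16 other settings, and those of the Toll-like receptor, follicular B-2 and DNA damage lists with the filter on all 8 arrays alone.

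**Figure D4:**
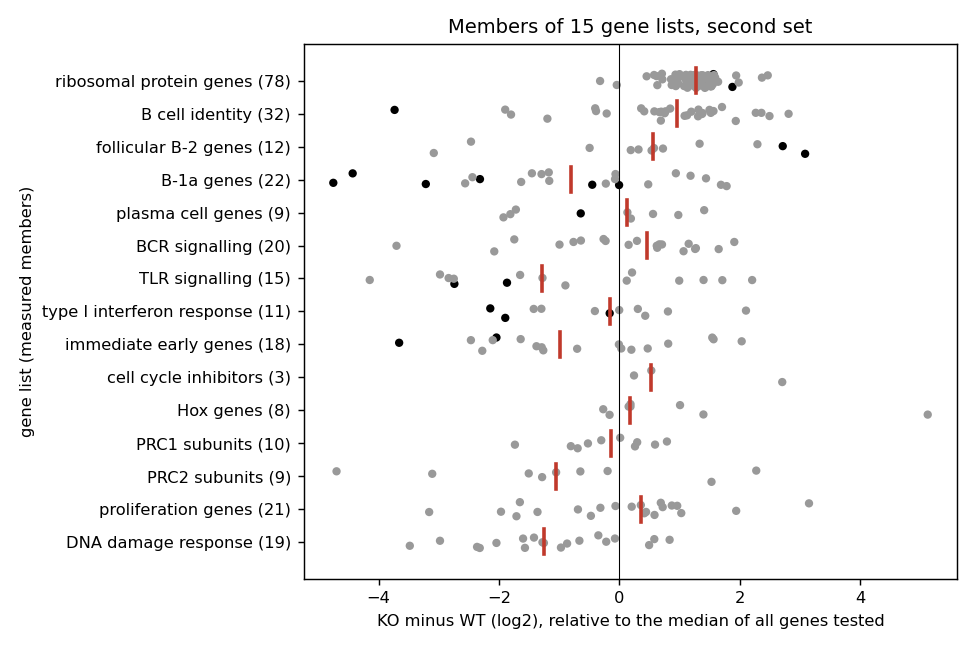
KO minus WT difference relative to the median of all genes tested (horizontal axis, log2) for the measured members of 15 gene lists, each point a gene and each red bar the list median. Black points are genes whose 4 KO and 4 WT arrays do not overlap; ribosomal protein genes lie at a median of 1.28, genes of B cell identity at 0.96 and B-1a genes at -0.81.

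Markers of other peritoneal cells varied between arrays of the same genotype. Macrophage markers summed to 0.742 to 9.74 in WT, highest on WT_2, and to 0.444 to 6.60 in KO, highest on KO_2, with 7 to 15 and 5 to 11 of 16 above background. T cell markers summed to 0.19 to 0.54 and 0.10 to 0.56, granulocyte markers to 0.54 to 1.03 and 0.21 to 0.58, and mast cell markers to 0.11 to 0.46 and 0.02 to 0.14. Erythroid markers reached 49.6 on WT_3 and 12.4 on KO_2 and were at most 0.94 elsewhere. Mesothelial markers had 2 to 3 of 7 above background in WT and 0 to 1 in KO. The part of these cells in the differences above was not tested. In bulk samples fewer cells of a type and less RNA per cell cannot be told apart.

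The first set of experiments, 3 KO and 3 WT arrays on another slide, shares no sample with these 8. There the median difference of all genes was -0.56, each of the 8 genes had a negative difference, and 7 of the 8 lay under that median, Amz2 being 0.03 above it. Of these genes 3 showed no overlap, beside 8.9% of all genes that lay lower without overlap. The lincRNA repeated its size, -8.94 (adjusted p = 0.0199), with levels of -0.98, 1.37 and 1.66 in WT and -7.44, -7.06 and -10.28 in KO. It was 1 of 2 genes called in the first set (0.0113%). Ifi207 differed by -5.58 there (adjusted p = 0.409), with 0 of 3 KO and 3 of 3 WT arrays above background. Rab27a differed by -1.94 (adjusted p = 0.812), at -3.53 to -1.85 in WT and -6.07 to -3.69 in KO, above background on every array of that set. Amz2 and Zfp882 differed by -0.54 and -0.66, and Faf2 by -0.88.

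A test of whether the difference depended on the set passed for 0 of 17710 genes (0%), with 507 at an unadjusted p under 0.05 (2.86%). Without KO_4 it passed for 126 genes. The smallest p in the direction of a lower value in the second set were those of Faf2 (-4.43), Rab27a (-5.85), Tmed3 (-8.05) and Rwdd2b (-5.47), all with adjusted p of at least 0.569. Tmed3, a cargo receptor of the secretory pathway, differed by -4.68 in this set and by 3.37 in the first, in both without overlap. In the other direction stood Ehf, an ETS transcription factor, which was the other gene called in the first set (-6.13, adjusted p = 0.0217) and differed by -1.68 here. Mul1, BC029722 and Gpr174, a lysophospholipid receptor of B cells, differed by 2.53, 1.42 and 1.24 here and by -2.49, -2.57 and -5.09 in the first set.

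Genes without overlap in the second set can be followed into the first. Of the 938 lower here that had values there, 140 (14.9%) were lower there without overlap and 13 (1.39%) higher, beside 8.9% and 3.71% of all genes. Of the 100 higher here, 16 (16%) were higher there without overlap and 4 (4%) lower. Among the 16 were Tnfrsf13c, which differed by 1.90 there at its brighter probe, and Gdi2, which differed by 1.59. Of the 100, 94 were above background on all 8 arrays here, against 6184 of the 17710 genes tested. The shares over all genes are thus not a like baseline for the 100. Hoxc9 differed by 7.71 in the first set with no overlap.

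**Figure D5:**
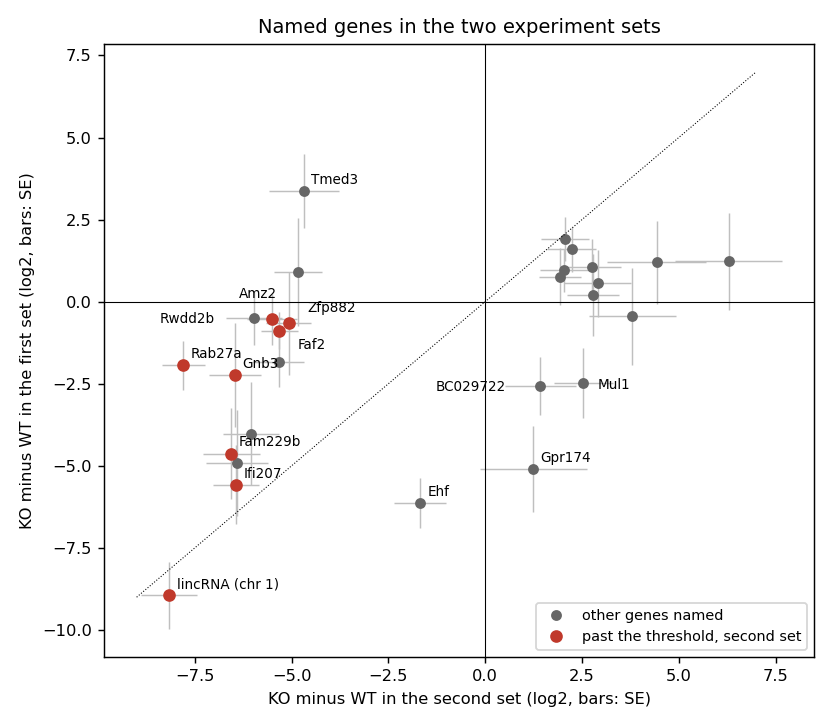
KO minus WT difference (log2) in the second set (horizontal axis) against that in the first set (vertical axis) for the genes past the threshold in the second set (red) and other named genes (grey), with bars of 1 SE and a dotted line of equal differences. The lincRNA lies near that line at -8.16 and -8.94, whereas Rab27a lies at -7.79 and -1.94 and Tmed3 at -4.68 and 3.37.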

How the data were processed

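Spot intensity was deposited as scanner output of Agilent Feature Extraction 10.7.3.1, with build mm9, per the file headers, and that tool is also named in the submitters' processing notes. Per the labels' protocols, a column kit for small samples gave the RNA, and Cy3 labelling followed an undisclosed protocol. The deposited table of processed values, on a log2 scale by comparison with the scanner values (Spearman's rho at least 0.999), has a median of 3.95 in each column. Its higher values mean more signal, and no source used here names how it was made. Per-spot marks for background, saturation and outliers were scored 0 or 1 per the file headers.

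Outlier spots were left out, 0 spots were saturated, and spots of a probe were averaged. Levels were log2 of the processed signal minus each array's 75th percentile over the 7433 probes above background on all 8 arrays, since the percentile over all probes lay in background on KO_2. A gene was represented by its brightest kept probe (24730 probes kept, 17710 genes). Several kept probes existed for 4411 genes, and for 4 of them probes differed in opposite directions (unadjusted p under 0.05). Current symbols came from RefSeq names by accession (27598 of 55681 probes), symbol (3493) or synonym (393), and 24197 probes kept the name in the files. For a gene below background on all arrays of a genotype the fold is a bound, set against each array's dimmest signal above background, or the probe's own level where that was higher. The bound holds for this signal and scaling, not under other background corrections. Tests used limma 3.58.1 in R 4.3.3 (lmFit, eBayes, two-sided, Benjamini-Hochberg, threshold 0.05) on the 8 arrays with no covariate, and on all 14 arrays with a mean per genotype and set for the dependence on the set. The scripts were tested on simulated data. The set was read from the style of the titles. Slide was taken from the file headers: one slide held KO_1 to KO_4, WT_1 and WT_3, and another held WT_2 and WT_4.

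Named genes were Bmi1 and Cdkn2a, 12 per direction by smallest p among genes above background on all 4 arrays of the brighter genotype, 8 per direction among genes above background on all 8 arrays, up to 4 per gene list and 4 per direction for the dependence on the set. Bhlhe41, Cd5, Cd79a and Commd3 were named as markers or neighbours, and the lincRNA, Xist and Ddx3y, outside the rule, after their values were seen. The members and lists were chosen with earlier results of these data known. Figures were drawn with matplotlib 3.10.9. Alternatives were other scalings, background corrections, filters, blocks, weights and left-out arrays. Not every gene that the rule picks is reported here.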

Additional observations from a re-analysis of the deposited data

Results flagged for a closer look

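In 7 of the 136 groups of 4 arrays checked (67 genes and the share of probes above background, each in both genotypes), 1 array stood apart from the other 3 by Dixon's gap test. Chance gives about 1 such group in 20. KO_4 was that array in 4 groups, each time as the highest. It read -3.13 for Bach2, against -10.30 to -9.48 on the other KO arrays, and -4.31 for E2f1, against -10.39 to -9.69. It read -3.88 for Mrps25, against -7.21 to -6.72, and -6.05 for Ndufb10, against -8.63 to -8.43. Among WT arrays, WT_3 was lowest for Slc37a2 (-4.27 against -2.52 to -2.30) and highest for Cdkn1a (-3.51 against -6.09 to -6.01). WT_2 was highest for Jchain (-3.95 against -6.26 to -6.04).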

How the results depend on the processing

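Genes lower in KO numbered 8. They numbered 0 with the 75th percentile over all probes, slide as a fixed block, the slide with both genotypes alone, KO_4 as the only KO array, or WT_2 and KO_2 (bright at 1 Xist probe, chosen after seeing the data) left out. They numbered 1 with the filter on all 8 arrays (where 1 of the 8 was tested), 2 with normexp, 3 with quantile normalization, with array weights and with a robust variance trend, 4 in the deposited table, and 5 with a looser filter or none. Where KO_4 is the only KO array, the spread comes from the WT arrays and KO_4 is assumed to vary like them. With replicate numbers as a replicate block 0 passed, and samples of one number did not deviate together (r = -0.14 to 0.00), so the numbers are not taken as a pairing. Leaving out 1 array at a time gave 0 to 1464 genes lower, 0 to 15 higher, 0 to 126 dependent on the set and a difference in detected share of -22.4 to -11.8 percentage points.

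The relative difference changed sign for Cdkn1b with normexp (-1.57), the filter on all 8 arrays (-0.21) and the mean of probes (-0.84). It did so for Ehf with normexp (0.079), and for Cdkn1a without a filter (-0.20), with the slide block or the mixed slide alone (-0.34 in both), and over left-out arrays (-0.50 to 0.87). With KO_4 as the only KO array it turned to 0.94 for Bach2, 0.29 for Bcl2, 0.97 for Cd5, 0.74 for Commd3, 0.059 for E2f1, 0.34 for Jchain, -0.23 for Fau and -0.057 for Rpl5. The Bmi1 probe at 18607531 differed by 1.38 with the percentile over all probes, 0.71 with quantile normalization, 0.048 with normexp, and -1.54 to 1.17 over left-out arrays. The causes were not tested. Dim signal on KO_1, KO_2 and KO_3 limits all genes near background.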

Other observations

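The lincRNA and Ifi207 lie in a cluster of p200 genes, and the array features within 500000 bases of the lincRNA were examined after its values had been seen. Of 70 probes in that window, 49 were above background on at least 3 arrays of a genotype. All KO arrays lay below all WT arrays for 10 of the 49 and above them for 0, beside 5.31% and 0.566% of all genes. The window was chosen by probes that are among the 10. Several probes here read 1 transcript, whereas each gene in those shares was represented by 1 probe. The count therefore cannot show an excess over those shares. The 10 include the 4 lincRNA probes that share a run of bases, the Ifi207 probe and 1 probe of Ifi203, another p200 gene, which differed by -2.96. That Ifi203 probe read -10.10 on KO_2 but -0.95 on KO_4, against a lowest WT level of -0.89. Other Ifi203 probes overlapped between genotypes, with differences of 1.91, -1.54 and -0.41. The others are 4 probes for non-coding transcripts annotated on the reverse strand, with differences of -4.78, -4.48, -4.55 and -4.37. The p200 genes are similar copies, so which copy a probe reads is uncertain.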
